A study of Populus tremula x Populus alba with 3 samples.

Results

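This section describes 3 poplar genes of hormone signalling among the 41335 genes of the count table. They are Potri.008G161200, whose Arabidopsis match is the auxin repressor IAA14 (SLR), Potri.010G078300, matched to the auxin repressor IAA7 (AXR2), and Potri.018G111300, matched to the cytokinin response regulator ARR12. They were picked by identifier from the authors' deposited table of genes that differ between PtaDML10 RNAi lines and wild type, with results for that contrast in view. Their levels against wild type are therefore a description, with no test, and the matches are the authors' own best Arabidopsis loci (AT4G14550, AT3G23050 and AT2G25180).

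Auxin acts by removing a brake. Aux/IAA proteins such as IAA7 and IAA14 sit on auxin response factors and keep their target genes off, and auxin joins them to TIR1/AFB receptors so that they are degraded. Many Aux/IAA genes are themselves switched on by auxin, which closes a feedback loop. In Arabidopsis, stabilised forms of IAA14 block lateral root formation and stabilised forms of IAA7 give dwarfed plants. Cytokinin signals the other way round, through a relay of phosphate from membrane histidine kinases to type-B response regulators such as ARR12, which then bind DNA and turn on cytokinin target genes. The hormones have opposed roles in many shoot and root meristems, and both act in the outgrowth of buds.

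All plants belonged to INRA clone 717-1B4, a hybrid of Populus tremula and Populus alba used for transformation. The groups are wild type (n = 1 library, WT) and RNAi against PtaDML10, a gene named for the DEMETER-like enzymes that take methylated cytosine out of DNA (n = 2 libraries, 1 from the line labelled KD2 and 1 from the line labelled KD5). Plants of every genotype had the same treatment, with 4 weeks of long days (16 h light, 21 °C), 12 weeks of short days (8 h, 19 °C) and 4 weeks at 4 °C before a return to long days, and apical buds were taken at stage 0, before bud break. The labels speak of 15 buds from 15 plants per genotype but not of pooling, and they give neither the promoter of the RNAi construct nor its number of insertions. Each line is represented by 1 library, so that the spread within a line is unknown and the spread between KD2 and KD5 mixes line and sampling.

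Library totals were 6829583 counts for WT, 4509887 for KD2 and 4692056 for KD5. Levels are given as CPM, counts divided by library size after scaling by the trimmed mean of M-values (TMM), and differences as log2 fold changes from an edgeR fit over 23089 genes. The locus taken as PtaDML10 from published naming, Potri.010G234400, had 9.59 CPM in WT, 13.2 CPM in the library labelled KD2 and 17.01 CPM in that labelled KD5, above wild type and so against the direction of a knockdown (log2 fold change 0.66, SE 0.31, edgeR adjusted p = 0.151). Directions below are accordingly those of the libraries so labelled. Markers of the shoot meristem were detected in every library: the 2 listed matches of SHOOT MERISTEMLESS summed to 235, 106 and 145 CPM in WT, KD2 and KD5.

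The IAA14 match carried the widest gap. Potri.008G161200 had 77 counts in WT, 16 in KD2 and 15 in KD5, which correspond to 12.5, 3.36 and 3.07 CPM. Both RNAi libraries lay below wild type and close to each other, and the exact 95% counting intervals of WT (9.88 to 15.6 CPM) and of the RNAi libraries (KD2 1.92 to 5.46 CPM, KD5 1.72 to 5.07 CPM) did not overlap. The genes were chosen on this contrast, and these intervals cover counting error only. Nothing is therefore read from such gaps, here or for the IAA7 and ARR12 matches. The RNAi libraries averaged 3.22 ± 0.201 CPM (SD, n = 2), or 25.7% of the wild type level, with a log2 fold change of -1.95 (SE 0.43). Of the tested genes, 0.316% had a lower log2 fold change. In whole buds, fewer cells expressing a gene and less RNA per cell cannot be told apart.

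The match of IAA7 was far better counted and differed less. Potri.010G078300 had 1104 counts in WT, 575 in KD2 and 546 in KD5, equal to 179, 121 and 112 CPM. The RNAi libraries again stood together below wild type, and the counting interval of WT (169 to 190 CPM) lay clear of those of KD2 (111 to 131 CPM) and KD5 (103 to 122 CPM). Their mean of 116 ± 6.24 CPM (SD, n = 2) was 64.8% of the wild type level, a log2 fold change of -0.63 (SE 0.17). By mean CPM this gene exceeded 94.7% of the tested genes, whereas 10.7% of them had a lower log2 fold change than it.

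ARR12 stood on the other side. Its match Potri.018G111300 had 29 counts in WT, 46 in KD2 and 68 in KD5, or 4.71, 9.66 and 13.9 CPM. Wild type was lowest and KD5 highest. The counting interval of WT (3.16 to 6.77 CPM) ended just under that of KD2 (7.07 to 12.9 CPM), which in turn overlapped that of KD5 (10.8 to 17.7 CPM). The RNAi mean was 11.8 ± 3.03 CPM (SD, n = 2), 2.50 times the wild type level, with a log2 fold change of 1.32 (SE 0.39). A higher log2 fold change was found in 3.14% of the tested genes.

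**Figure D1:**
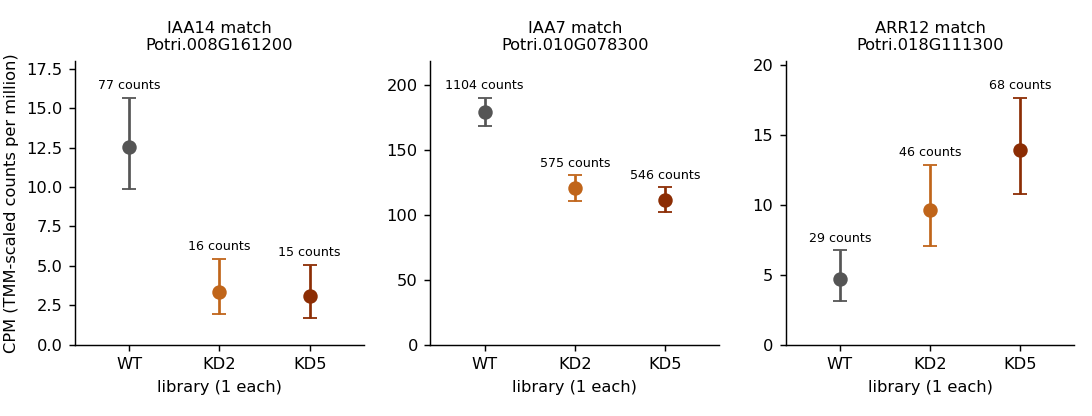
Level of each gene in CPM (vertical axis from 0) in the WT, KD2 and KD5 libraries, 1 point per library with its exact 95% Poisson interval and its raw count. The IAA14 and IAA7 matches are highest in WT (12.5 and 179 CPM), and the ARR12 match is lowest there (4.71 CPM).

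All 3 genes were among those called at an edgeR adjusted p below 0.05, where 13.1% of tested genes were called, 5.0% higher and 8.05% lower. Because the genes were chosen on this contrast, nothing is read from that count. The background differed with abundance. Among the 2758 tested genes within 2-fold of the mean CPM of the IAA7 match, 22.7% were called lower and 3.44% higher, and their median log2 fold change was -0.17, against 0.02 over all tested genes. Among the 6341 genes around the IAA14 match, 2.87% were called lower and 4.59% higher. Around the ARR12 match, 5.81% of 7584 genes were called higher and 3.65% lower. The IAA7 match thus lay in a range of abundance where lower calls were common, and the IAA14 match in one where they were rarer. The median log2 fold change was 0.12 around the IAA14 match and 0.11 around the ARR12 match.

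**Figure D2:**
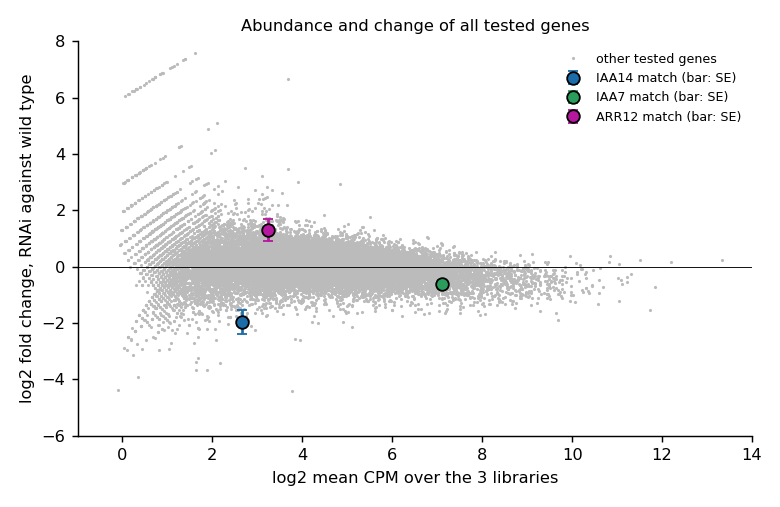
Log2 fold change of RNAi against wild type (vertical axis) against log2 mean CPM (horizontal axis) for the 23089 tested genes, with the 3 described genes in colour and bars of 1 SE. The cloud bends below 0 at high abundance, where the IAA7 match sits at -0.63, and the IAA14 match lies at the lower edge of its range at -1.95.

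The call of the IAA7 match depended on the scaling of libraries. With scaling by size alone, which raised the median log2 fold change of all tested genes from 0.02 to 0.24, Potri.010G078300 stood at -0.41 and its edgeR adjusted p was 0.0745, so that it was no longer called. This scaling shifted the other genes by a similar amount, to -1.73 for the IAA14 match and 1.54 for the ARR12 match. The IAA7 match was not called after loess normalization on abundance either (-0.40, adjusted p = 0.104), a setting added after seeing the data. Its direction was the same in these and the other alternatives, all from the same libraries. In the authors' deposited table this gene has a log2 fold change of -0.64 and an adjusted p of 0.0431, near the table's largest value of 0.0499, and it ranks 2027 of 2151 by p-value. That table gives -1.97 with rank 168 for Potri.008G161200 and 1.31 with rank 1225 for Potri.018G111300.

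**Figure D3:**
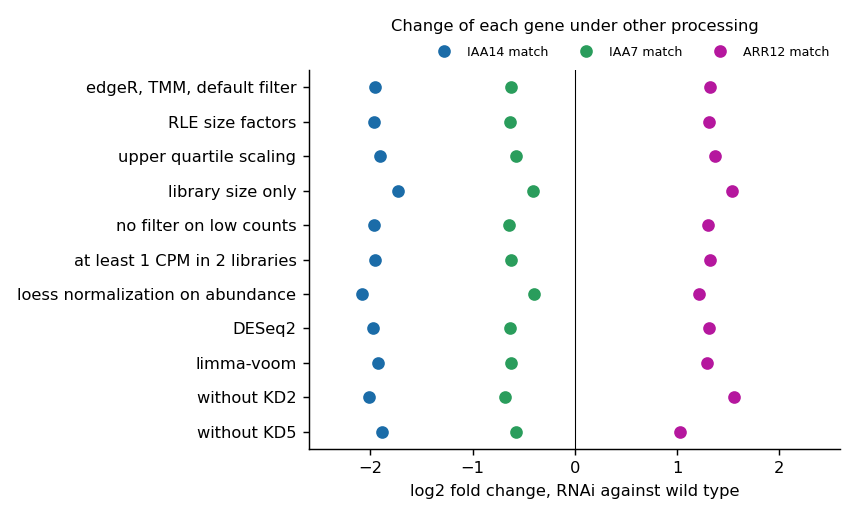
Log2 fold change of the RNAi libraries against wild type (horizontal axis) for the 3 genes under the edgeR fit and 10 alternatives (vertical axis). The values span -2.08 to -1.73 for the IAA14 match, -0.68 to -0.40 for the IAA7 match and 1.03 to 1.56 for the ARR12 match, each on its own side of 0. All come from the same libraries, on which the genes were chosen.

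These genes were chosen on RNAi against wild type and not directly on KD2 against KD5. KD2 and KD5 give the only spread within a group in that contrast, so closeness of the lines is not free of the choice. With 1 library per line the comparison of KD2 with KD5 allows no test of the lines, and the intervals here cover counting error between those libraries. The ratio of KD2 to KD5 was 1.09 for the IAA14 match (exact 95% interval 0.506 to 2.37) and 1.08 for the IAA7 match (0.958 to 1.22). For the ARR12 match KD5 exceeded KD2 by 1.44 times (0.978 to 2.15). No difference between the lines was detectable at this depth for any of the 3, since each interval includes a ratio of 1. The interval of the IAA14 match is much wider than that of the IAA7 match. Set against all tested genes, 28.4% had a smaller absolute log2 ratio of KD2 to KD5 than the IAA14 match, 27.1% than the IAA7 match and 82.5% than the ARR12 match. These shares take no account of abundance, on which counting error depends, so the genes are not ranked by them.

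The closeness of the RNAi libraries at the IAA14 match is not a measure of precision. Its CPM values in KD2 and KD5 differed with a coefficient of variation of 6.26%, whereas counts of 16 and 15 carry counting errors of 25% and 25.8%. For the IAA7 match the variation between the libraries was 5.36%, with counting errors of 4.17% in KD2 and 4.28% in KD5. For the ARR12 match it was 25.6%, with counting errors of 14.7% and 12.1%.

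Each line was also set against wild type alone, side by side because both ratios share the WT library. The IAA14 match was at 0.268 of wild type in KD2 (counting interval 0.146 to 0.464) and 0.246 in KD5 (0.131 to 0.431). The IAA7 match was at 0.673 in KD2 (0.607 to 0.745) and 0.623 in KD5 (0.562 to 0.691). The ARR12 match was at 2.05 times wild type in KD2 (1.26 to 3.38) and 2.96 times in KD5 (1.89 to 4.74). KD2 and KD5 were both below wild type for the IAA14 and IAA7 matches and both above it for the ARR12 match. The genes were chosen on this contrast and the ratios share the WT library, so nothing is read from that shared direction. Relative to the other tested genes, the lines lay farthest apart for the ARR12 match. That comparison takes no account of abundance and is not read as a ranking.

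**Figure D4:**
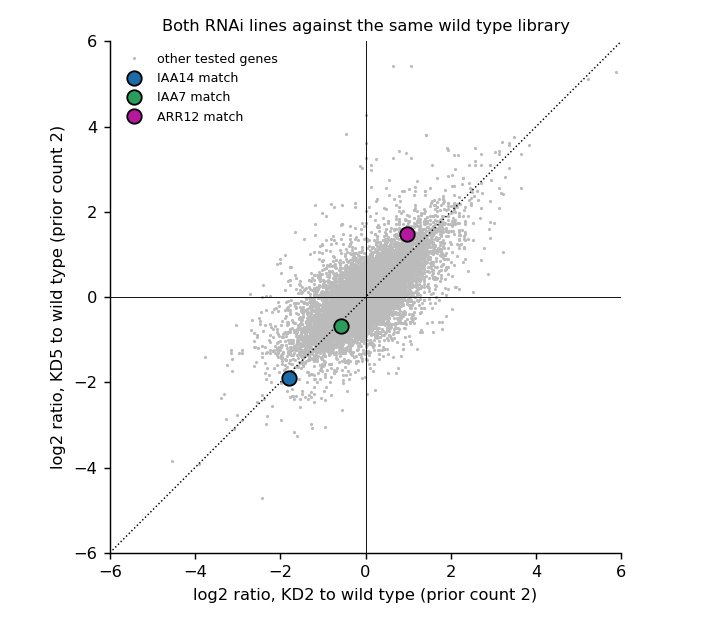
Log2 ratio to wild type in KD2 (horizontal axis) and in KD5 (vertical axis), with a prior count of 2, for all tested genes and the 3 described genes, and a dotted line where both ratios are equal. Both ratios share the wild type library, which by itself draws points along the line. The IAA14 match (-1.79 and -1.90) and the IAA7 match (-0.57 and -0.68) lie near it, and the ARR12 match (0.98 and 1.49) above it.

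Ratios between genes inside a library do not depend on a scaling factor per library. Gene lengths were not used, so these ratios are compared across libraries and not read as relative levels of the genes. Counts of the IAA14 match amounted to 6.97% of those of the IAA7 match in WT (exact 95% interval 5.46 to 8.79%). The share was 2.78% in KD2 (1.58 to 4.56%) and 2.75% in KD5 (1.53 to 4.57%). Relative to wild type, the log2 ratio of the IAA14 to the IAA7 match thus differed by -1.33 in KD2 and -1.34 in KD5, whatever the factor given to each library. Loess normalization, whose correction varies with abundance, does not keep this ratio fixed. Counts of the ARR12 match were 0.377 times those of the IAA14 match in WT (0.237 to 0.584), 2.88 times in KD2 (1.60 to 5.44) and 4.53 times in KD5 (2.57 to 8.54). The order of these raw counts thus differed between wild type and both RNAi libraries, but it depends on gene lengths and nothing is read from it. The genes were chosen on this contrast, with the ARR12 match higher and both repressors lower. A rise of its ratio to either repressor is fixed by that choice, and the intervals cover counting error only. The ratio of the IAA14 to the IAA7 match restates the gap between their changes against wild type, which were in view at the choice. Nothing is read from it either. Against the IAA7 match, counts of the ARR12 match were 2.63% in WT (1.75 to 3.79%), 8.00% in KD2 (5.79 to 10.8%) and 12.5% in KD5 (9.53 to 16.0%).

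**Figure D5:**
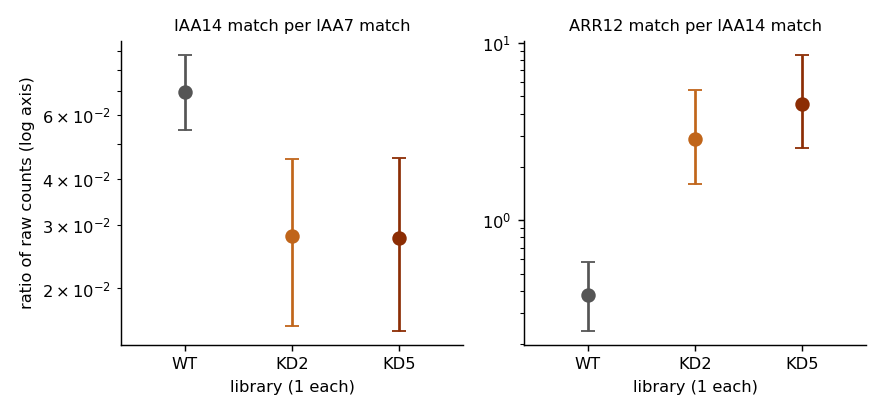
Ratio of raw counts of the IAA14 match to the IAA7 match (left) and of the ARR12 match to the IAA14 match (right) in each library, on log axes, with exact 95% intervals. The left ratio is 0.0697 in WT and 0.0278 and 0.0275 in KD2 and KD5, and the right ratio is 0.377 in WT and 2.88 and 4.53 in KD2 and KD5, with no overlap between WT and either RNAi library. The intervals cover counting error only, and the genes were chosen on this contrast, which fixes the direction of the right ratio. The left ratio restates the changes of both repressors, which were in view at that choice.

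IAA7 and IAA14 belong to one clade of Aux/IAA proteins in Arabidopsis. No sequence was used here, so whether their poplar matches share reads with each other or with further copies was not tested, and their values are uncertain to that extent.

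The wider pathway can be followed only where the authors' deposited table pairs a poplar gene with an Arabidopsis locus. That table holds genes selected on these libraries, so its counts are not independent evidence of direction. Of 12 classes of auxin and cytokinin genes searched, by 123 Arabidopsis loci and by description, 9 had no gene in the table by that search. These were auxin response factors, TIR1/AFB receptors, auxin carriers, auxin synthesis and conjugation enzymes, type-A response regulators, cytokinin receptors, phosphotransfer proteins, cytokinin synthesis and breakdown enzymes, and cytokinin response factors. The 10 loci searched for auxin synthesis and conjugation left out that of GH3-10, whose match is in the table and is described below. Poplar genes of these classes outside the table carry no name here and were not analysed. The 3 classes with a gene held 6 in all, of which 3 were called lower, 2 higher and 1 was not called, where 8.05% of all tested genes were called lower and 5.0% higher. Since 3 of the 6 are the genes described above and the table holds genes picked for this contrast, nothing is read from these counts or from the median log2 fold change of -0.78 (0.02 for all tested genes).

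Besides the genes already described, the list had 3. A further Aux/IAA gene, the IAA4 match Potri.002G045000, had 32 counts in WT, 12 in KD2 and 6 in KD5, or 5.20, 2.52 and 1.23 CPM. Both RNAi libraries were below wild type, but here the gene missed the threshold with an edgeR adjusted p of 0.127 (log2 fold change -1.47, SE 0.66), while its adjusted p in the authors' deposited table is 0.0424. The remaining genes are SAURs, small auxin-induced genes many of which promote cell expansion in Arabidopsis, and they went in opposite directions. Potri.005G096400 fell from 15.3 CPM in WT to 6.93 (KD2) and 9.02 CPM (KD5), with an edgeR adjusted p of 0.0322 (log2 fold change -0.94, SE 0.32). Potri.005G237200 rose from 4 counts in WT to 19 in KD2 and 20 in KD5, or from 0.650 to 3.99 and 4.10 CPM (edgeR adjusted p = 0.0367, log2 fold change 2.59, SE 0.91). The first SAUR was not called with libraries scaled by size alone (edgeR adjusted p = 0.109), and the second was not called after loess normalization (0.0527) or with limma (0.150).

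A search of the descriptions for words on auxin or cytokinin, added after seeing the data, gave 2 more genes. Potri.013G144300, matched to GH3-10 (DFL2) of a family with members that join auxin to amino acids, had levels of 10.9, 5.04 and 5.53 CPM in WT, KD2 and KD5 and missed the threshold, with an edgeR adjusted p of 0.0605 (log2 fold change -1.04, SE 0.40). Potri.013G014900, described as dormancy and auxin associated, fell from 838 CPM in WT to 501 (KD2) and 470 CPM (KD5), with an edgeR adjusted p of 6.83e-06 (log2 fold change -0.79, SE 0.15). After loess normalization Potri.013G014900 stood at -0.30 and was not called (adjusted p = 0.209), while Potri.013G144300 stood at -1.15 and was called (0.0368).

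The genes with the most similar pair of log2 ratios to wild type were sought among 1566 genes of the deposited table that have a symbol or description and average 5 CPM or more, all selected on the same contrast. Likeness was the Euclidean distance between the pairs of ratios for KD2 and KD5, over 3 libraries. The pectin lyase-like gene Potri.003G076900 was nearest to the IAA14 match, at a distance of 0.13, with 36.6 CPM in WT, 9.45 in KD2 and 9.43 in KD5. The photosystem II subunit gene PSBR (Potri.011G142200, distance 0.25) and the glycosyltransferase family gene Potri.T037500 (distance 0.29) followed.

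Nearest to the IAA7 match were the elongation factor EF1B family gene Potri.012G096400 and the aldolase family gene Potri.010G117900, each at a distance of 0.0074, followed by the cyclophilin-like gene Potri.006G250900 at 0.015. Potri.012G096400 had 447 CPM in WT, 300.4 in KD2 and 280.2 in KD5. The ARR12 match had as its nearest genes the mitochondrial transcription termination factor family gene Potri.001G034600 (0.054), the F-box family gene Potri.009G140000 (0.060) and the NMD3 family gene Potri.004G085700 (0.073). Potri.004G085700 had 10.6 CPM in WT, 21.2 in KD2 and 32.0 in KD5. Neighbours of the IAA7 match were thus closer to it than those of the other genes. Such distances depend on how many candidates lie near a given change and on counting error, so they are not read as a trait of the gene.

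Markers of bud tissues were looked up in the same deposited table. It holds genes picked for this contrast, so their calls are nearly fixed by that choice and nothing is read from the counts, which stand beside 8.05% of all tested genes called lower. Of 16 listed light-harvesting and Rubisco small subunit genes, which mark green leaf primordia, 16 were called lower and 0 higher, with summed levels of 8888, 4541 and 4579 CPM in WT, KD2 and KD5. Both listed matches of SHOOT MERISTEMLESS were called lower, as were the single listed xylem marker CESA7 (15.1, 5.25 and 6.97 CPM in the same order) and 5 of 5 epidermal genes matched to PDF1 and LTP1 (summed levels of 2550, 1439 and 1252 CPM). None of these 24 markers was at 0 in any library. Their summed levels were lower in both RNAi libraries, but the sums come from the same selected genes and nothing is read from them either. CESA4 and CESA8 for xylem and ATML1 for epidermis were also planned as markers, but no match of them was among the listed genes. Marker copies outside the deposited table were not analysed, and the part of these tissues in the levels of the 3 hormone genes was not tested.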

How the data were processed

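RNA from apical buds was sequenced in 3 libraries (NEBNext directional kit, per the labels). The authors deposited raw whole-number counts for 41335 genes, with 1 column per library. FastQC, TopHat and edgeR are named in the submitters' processing notes; the genome build, annotation, counting program and all versions were not given in the sources used. In the authors' deposited table are log2 fold changes, average log2 CPM and p-values with adjusted p-values for 2151 genes, per the file headers.

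Counts were analysed with edgeR 4.0.16 in R 4.3.3: filterByExpr (minimum count 10, 23089 genes kept), TMM scaling, and the quasi-likelihood F-test of 2 RNAi libraries against 1 wild type library, two-sided, with Benjamini-Hochberg adjustment over all tested genes and a threshold of 0.05. The fit has 1 residual degree of freedom, from KD2 against KD5, and wild type is taken to vary as much as they do. SEs are the absolute log2 fold change divided by the square root of F. The fit was tested on simulated data. Single-library log2 ratios use a prior count of 2. Intervals at 95% (Poisson, and Clopper-Pearson for ratios) cover counting error only. Alternatives included DESeq2 1.42.0, limma 3.58.1 and loess normalization (span 0.7).

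The genes and lists were chosen with earlier results of these data known. Genes named are the 3 described, called auxin and cytokinin list genes with any listed Aux/IAA or type-B regulator, the 3 nearest in pattern to each, and PtaDML10. Named outside that rule, after their values were seen, are the GH3-10 match, the dormancy and auxin associated gene and the tissue marker matches. The word search and abundance ranges were added after seeing the data. Any p-value reflects the spread between single libraries, which may be technical.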

Additional observations from a re-analysis of the deposited data

How the results depend on the processing

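In 30 alternative values (10 settings for 3 genes) no log2 fold change of the IAA14, IAA7 or ARR12 match changed sign. All settings used the same libraries, and the genes were chosen on this contrast, so the kept signs are not separate evidence of direction. Scaling by library size alone moved the IAA14 match to -1.73, the IAA7 match to -0.41 and the ARR12 match to 1.54. Loess normalization moved them to -2.08, -0.40 and 1.21. For the IAA14 and IAA7 matches these moves exceeded the SD of the log2 ratios between the RNAi libraries (0.081 and 0.077), and for the ARR12 match they did not (0.36). That SD comes from 2 libraries and is not a measure of precision, so the genes are not ranked by it. The SEs of the fit were 0.43, 0.17 and 0.39 in the same order. Leaving out 1 RNAi library, a value with no test, gave -2.02 to -1.89 for the IAA14 match, -0.68 to -0.57 for the IAA7 match, 1.03 to 1.56 for the ARR12 match, and -1.34 to -1.33 for the log2 ratio of the IAA14 to the IAA7 match relative to wild type.

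Of all 23089 tested genes 3014 were called, 1155 higher and 1859 lower. Scaling by library size alone gave 3004 higher and 976 lower, 75.5% higher against 38.3%, and left 1 hormone list gene called lower. Without a filter on low counts edgeR called 0 of 31352 genes, higher or lower and in the hormone list, with 5051 at an unadjusted p under 0.05 (DESeq2 called 615 of 6251). The adjusted p was then 0.0987 for the IAA14 match, 0.135 for the IAA7 match and 0.206 for the ARR12 match. DESeq2 gave an adjusted p to 6251 genes and called 37 of them higher and 578 lower. In the hormone list it gave one only to the IAA7 match (0.0646), and none to the IAA14 and ARR12 matches. Its 0 calls in that list therefore say nothing of the other listed genes. Loess normalization and limma each called 1 hormone list gene higher. The cause of these changes was not tested. Depth limits the IAA14 match most, at 15 and 16 counts in the RNAi libraries. No paired analysis was possible because wild type has 1 library and the labels give no shared replicate numbers.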
